A study of Mus musculus with 17 samples.

Results

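The genes described here are the 9 mouse genes that make, package, recycle and break down acetylcholine or encode its muscarinic receptors, out of 41015 genes with deposited counts. They were chosen by name and function. Chat, Slc18a3 and Slc5a7 serve synthesis and transport, Ache serves breakdown, and Chrm1 to Chrm5 are the 5 receptors. All 9 were found in the files and all 9 passed the filter on low counts. RNA-seq counts from brain were compared between 6 libraries of mice with a transgene that overexpresses HAR1A, a human long noncoding RNA gene with a fast-evolving segment, and 11 libraries of normal control mice. Both groups had the C57BL/6 strain background, and no further allele or agent is named for either. The promoter of the transgene, the founder line, the part of the brain, age and sex are not given in the sources, nor whether each library is a separate animal. The p-values therefore reflect only how these libraries vary, which may be technical. The HAR1A transcript itself was not analysed here, so it could not be used to check the group labels.

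Acetylcholine is made from choline and acetyl-CoA by choline acetyltransferase (Chat), loaded into vesicles by the vesicular transporter (Slc18a3, also called VAChT), and cut in the synaptic cleft by acetylcholinesterase (Ache), after which the high-affinity transporter (Slc5a7, also called CHT) takes the choline back up. In the nervous system Chat, Slc18a3 and Slc5a7 mark separate cell populations, among them basal forebrain projection neurons, striatal interneurons, medial habenula neurons and the motor neurons of brainstem and cord. Muscarinic receptors are G protein-coupled: Chrm1, Chrm3 and Chrm5 act through Gq and phospholipase C, while Chrm2 and Chrm4 act through Gi and lower cyclic AMP. Chrm1 and Chrm4 are textbook receptors of cortex and striatum, and Chrm2 is the classic autoreceptor of cholinergic neurons and is common in brainstem.

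Libraries are named by group and a number given in order of deposition. Assigned counts ranged from 17067407 to 22642441. All 6 transgene libraries were sequenced on lane 4, which also held controls 7, 8 and 11, whereas 6 controls were on lane 8 and the last 2 on lanes 2 and 6, the latter of another flow cell. The labelled tissue was checked with pan-neuronal genes, whose summed level was 3805 to 5241 CPM (assigned counts scaled to a common library size) in transgene and 3713 to 5800 CPM in control libraries. Regional markers differed far more between the groups. The 16 Hox genes of hindbrain and cord summed to 0.0927 to 0.634 CPM in transgene against 16.7 to 370.4 CPM in control libraries, and 6 of them, Hoxa2, Hoxb2, Hoxb6, Hoxb7, Hoxd3 and Hoxd4, had 0 counts in every transgene library. The 12 striatal projection neuron genes summed to 1373 to 3708 CPM against 498.4 to 769.0 CPM, and the 8 cortical excitatory genes to 1185 to 2254 CPM against 156.9 to 860.9 CPM. Granule cell genes of the cerebellum summed to 71.1 to 498.7 CPM against 133.7 to 2934 CPM. In that list control 7, at 133.7 CPM, lay within the transgene range, the next control was control 11 at 985.8 CPM, and transgene 3, at 498.7 CPM, was highest of its group. Thalamic genes summed to 200.8 to 530.5 CPM against 638.4 to 881.6 CPM, forebrain GABA neuron genes to 1381 to 2160 CPM against 912.6 to 1200 CPM, glial genes to 1212 to 1994 CPM against 1702 to 4738 CPM, choroid plexus genes to 21.3 to 1856 CPM against 69.4 to 4041 CPM, and skeletal muscle genes to 11.9 to 18.0 CPM against 2.50 to 6.93 CPM. By the edgeR test over all libraries, 16 of 16 Hox, 8 of 8 granule cell, 3 of 6 thalamic and 5 of 7 glial genes tested were lower, and 12 of 12 striatal, 8 of 8 cortical, 7 of 8 GABA neuron and 2 of 7 glial genes were higher. Of 3 skeletal muscle genes tested, 1 was higher, the skeletal actin gene Acta1 at 13.2 ± 2.36 CPM (SD, n = 6) against 3.50 ± 1.35 CPM (SD, n = 11), which makes up most of that sum; Mylpf and Chrna1 did not pass. Tnnt3 and Chrnd had 0 counts in every library. These 5 were named after their values were seen. Of choroid plexus genes 1 of 5 was lower, and of pan-neuronal genes 2 of 6 were higher. Among all tested features 24.4% were called lower and 23.0% higher, so counts near those shares do not mark a shift of a list. The part of these marker differences in the results given next was not tested. In bulk tissue, fewer cells of a type and less RNA per cell cannot be told apart.

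The gene models differ in how well single transcripts could be counted, which bears on every value. Chat (mm10, minus strand of chromosome 14, 32408203 to 32465989) has 1 deposited transcript of 16 exons. Slc18a3 (same strand, 32462438 to 32464850) is a single exon that lies wholly inside intron 1 of Chat, starting 1107 bases after the Chat transcript start in an intron of 4893 bases. Their exons share no base, but unspliced Chat RNA would be counted as Slc18a3 and cannot be told apart from it. An antisense gene, Gm2990, overlaps the Chat span without sharing exon bases.

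**Figure D1:**
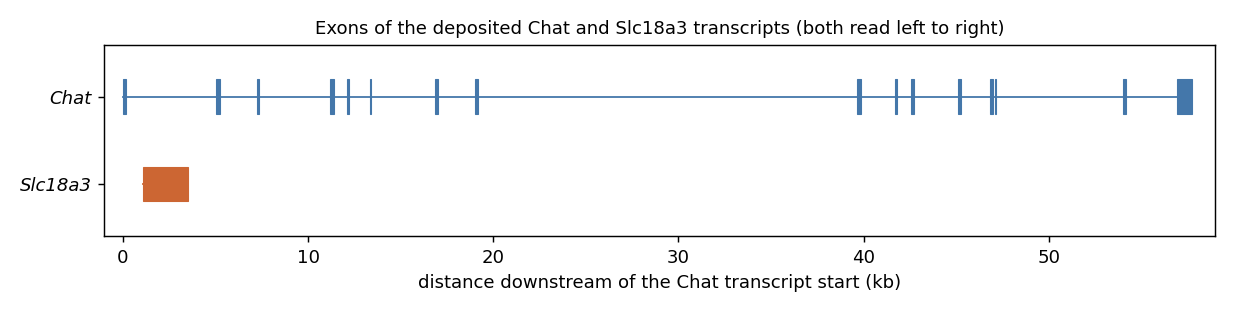
Exons of the deposited Chat and Slc18a3 transcripts drawn by distance in kb downstream of the Chat transcript start, with boxes for exons and a line for introns. The single Slc18a3 exon sits inside intron 1 of Chat, 1107 bases after the Chat start.

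Slc5a7 (chromosome 17, 54273590 to 54299034, minus strand) has 9 exons and no overlapping gene. Ache (chromosome 5, 137287519 to 137294466, plus strand) has 3 deposited transcripts, and only 14 of its 2189 exon bases belong to a single one of them, so reads shared by its transcripts were lost and its level is understated. Its counts rest on reads that tell its transcripts apart. Whether a difference in them is one of total Ache level was not tested. Chrm1 (chromosome 19, 8663789 to 8683587, plus strand) and Chrm3 (chromosome 13, 9875486 to 10360847, minus strand) have 2 deposited transcripts each. All of their counts fell on 1 transcript, with 28.4% of Chrm1 and 59.2% of Chrm3 exon bases belonging to a single transcript. Chrm1 also shares 329 exon bases with Gm22820 and Chrm2 (chromosome 6, 36388084 to 36528414, plus strand) shares 88 with 9330158H04Rik, both on the opposite strand. Chrm4 (chromosome 2, 91927249 to 91928688, plus strand) and Chrm5 (chromosome 2, 112479171 to 112480769, minus strand) were each deposited as 1 exon, of 1440 and 1599 bases.

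Upstream sequence is shown for the 3 synthesis and transport genes, which varied together across control libraries, and for 2 receptor genes that were higher in the transgene libraries. RefSeq promoters on GRCm38.p6 matched 8 of the 9 genes, with no entry for Chrm1. Of the 250 bases before each RefSeq start, only the part outside annotated exons is printed, 5′ to 3′ on the gene's strand, with motif matches in capitals: chr14:32465990-32466159 for Chat, chr14:32464851-32465041 for Slc18a3, chr17:54299035-54299284 for Slc5a7 (all minus strand), chr13:10360848-10361053 for Chrm3 (minus strand) and chr2:91921939-91922188 for Chrm4 (plus strand).
Chat: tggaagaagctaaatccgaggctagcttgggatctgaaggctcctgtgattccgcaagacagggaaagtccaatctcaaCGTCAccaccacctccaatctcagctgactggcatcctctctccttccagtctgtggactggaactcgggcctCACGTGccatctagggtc
Slc18a3: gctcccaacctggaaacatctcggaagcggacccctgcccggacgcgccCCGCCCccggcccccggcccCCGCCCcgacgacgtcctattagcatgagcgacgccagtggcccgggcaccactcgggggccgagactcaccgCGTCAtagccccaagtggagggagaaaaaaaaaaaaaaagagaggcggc
Slc5a7: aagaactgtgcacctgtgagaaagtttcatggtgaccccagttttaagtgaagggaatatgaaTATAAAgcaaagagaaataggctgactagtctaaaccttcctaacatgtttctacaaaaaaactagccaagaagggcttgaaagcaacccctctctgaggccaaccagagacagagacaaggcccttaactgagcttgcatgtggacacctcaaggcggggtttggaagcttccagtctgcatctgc
Chrm3: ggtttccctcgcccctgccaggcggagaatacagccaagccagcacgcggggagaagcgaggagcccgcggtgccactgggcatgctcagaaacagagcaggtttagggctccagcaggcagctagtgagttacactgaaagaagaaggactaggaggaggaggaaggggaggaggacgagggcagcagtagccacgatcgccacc
Chrm4: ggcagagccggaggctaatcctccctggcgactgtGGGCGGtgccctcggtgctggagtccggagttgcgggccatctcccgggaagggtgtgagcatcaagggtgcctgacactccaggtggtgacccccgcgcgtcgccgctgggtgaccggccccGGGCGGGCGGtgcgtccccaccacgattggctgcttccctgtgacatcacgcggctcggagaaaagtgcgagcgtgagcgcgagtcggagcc

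Motifs were searched on both strands: the GC box GGGCGG, the TATA box TATAAA, the cyclic AMP response element core TGACG and the E-box CACGTG. Overlapping matches were counted. The Chat window held 1 CACGTG, 98 bases before the start, and 1 TGACG. Slc18a3 held 2 GGGCGG and 1 TGACG, and Slc5a7 held 1 TATAAA, 187 bases before its start. Chrm4 held 3 GGGCGG, of which 2 overlap, and Chrm3 had no match. In the windows not printed, Ache had 1 CACGTG and 4 GGGCGG, Chrm2 had 1 GGGCGG and Chrm5 had none. Among all 32851 RefSeq promoters, windows of the same length held GGGCGG in 32.7%, TATAAA in 12.4%, TGACG in 17.8% and CACGTG in 6.02%. The GC content of the windows ran from 37.6% in Chrm5 to 73.6% in Ache, against a median of 52.4% over all promoters.

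Over all 17 libraries, the acetylcholine transporter, choline transporter and acetylcholinesterase genes were lower in the transgene libraries, and the receptor genes Chrm1, Chrm3 and Chrm4 were higher. Slc18a3, Slc5a7 and Ache fell, while Chat, Chrm2 and Chrm5 did not pass the test (edgeR quasi-likelihood test, Benjamini-Hochberg adjusted p under 0.05). Thus 6 of the 9 genes were called, 3 higher and 3 lower. Among all 19136 tested features 47.4% were called, 23.0% higher and 24.4% lower, a background so high that the count alone says little about the 9. The median log2 fold change of the 9 genes was -0.44, beside -0.05 over all tested features. All fold changes are transgene minus control on the log2 scale with their standard error.

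Chat, the synthesizing enzyme, had 6.50 CPM in the lowest, a median of 10.3 and 14.1 CPM in the highest transgene library, against 2.27, 13.4 and 49.8 CPM in the controls. The controls spread on both sides of the transgene range, with control 3 lowest and control 7 highest. Means were 10.4 ± 3.41 CPM (SD, n = 6) and 17.5 ± 13.2 CPM (n = 11), and the log2 fold change of -0.75 ± 0.45 did not pass the test (edgeR adjusted p = 0.182). Within lane 4 it was -1.42 ± 0.51 (edgeR adjusted p = 0.064). Without control 8, which had 4.82 CPM, the lane 4 difference was -1.91 and passed (edgeR adjusted p = 0.00161).

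Slc18a3, the vesicular transporter encoded inside the Chat intron, had 2.19, 5.24 and 6.96 CPM as the lowest, median and highest transgene values, against 2.45, 19.4 and 81.7 CPM. Control 3 lay inside the transgene range and the other 10 controls above it. The log2 fold change was -2.50 ± 0.53 (edgeR adjusted p = 0.000811), from means of 4.70 ± 2.01 CPM (SD, n = 6) and 26.7 ± 21.3 CPM (n = 11). Within lane 4, where control 3 is not present, the groups did not overlap and the log2 fold change was -3.19 ± 0.54 (edgeR adjusted p = 0.00185).

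Slc5a7, which returns choline to the terminal, followed the same order, with 6.76, 14.2 and 20.0 CPM in the transgene libraries against 4.02, 37.4 and 157.3 CPM. Controls 3 and 8, at 4.02 and 15.3 CPM, were the controls that lay below the highest transgene library. The log2 fold change was -1.92 ± 0.52 over all libraries (edgeR adjusted p = 0.0055) and -2.57 ± 0.54 within lane 4 (edgeR adjusted p = 0.00596). Mean levels were 13.6 ± 5.41 CPM (SD, n = 6) and 51.6 ± 42.0 CPM (n = 11).

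Ache varied least of the 4 genes. The transgene libraries had 12.1, 15.7 and 18.6 CPM and the controls 16.2, 25.3 and 43.4 CPM, with controls 3 and 8 inside the transgene range. Its log2 fold change was -0.73 ± 0.18 (edgeR adjusted p = 0.00298), from 15.5 ± 2.50 CPM (SD, n = 6) against 25.7 ± 7.92 CPM (n = 11). Within lane 4 the difference was -1.02 ± 0.25 (edgeR adjusted p = 0.0124), and without control 7 it was -0.68 and did not pass (edgeR adjusted p = 0.0641).

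**Figure D2:**
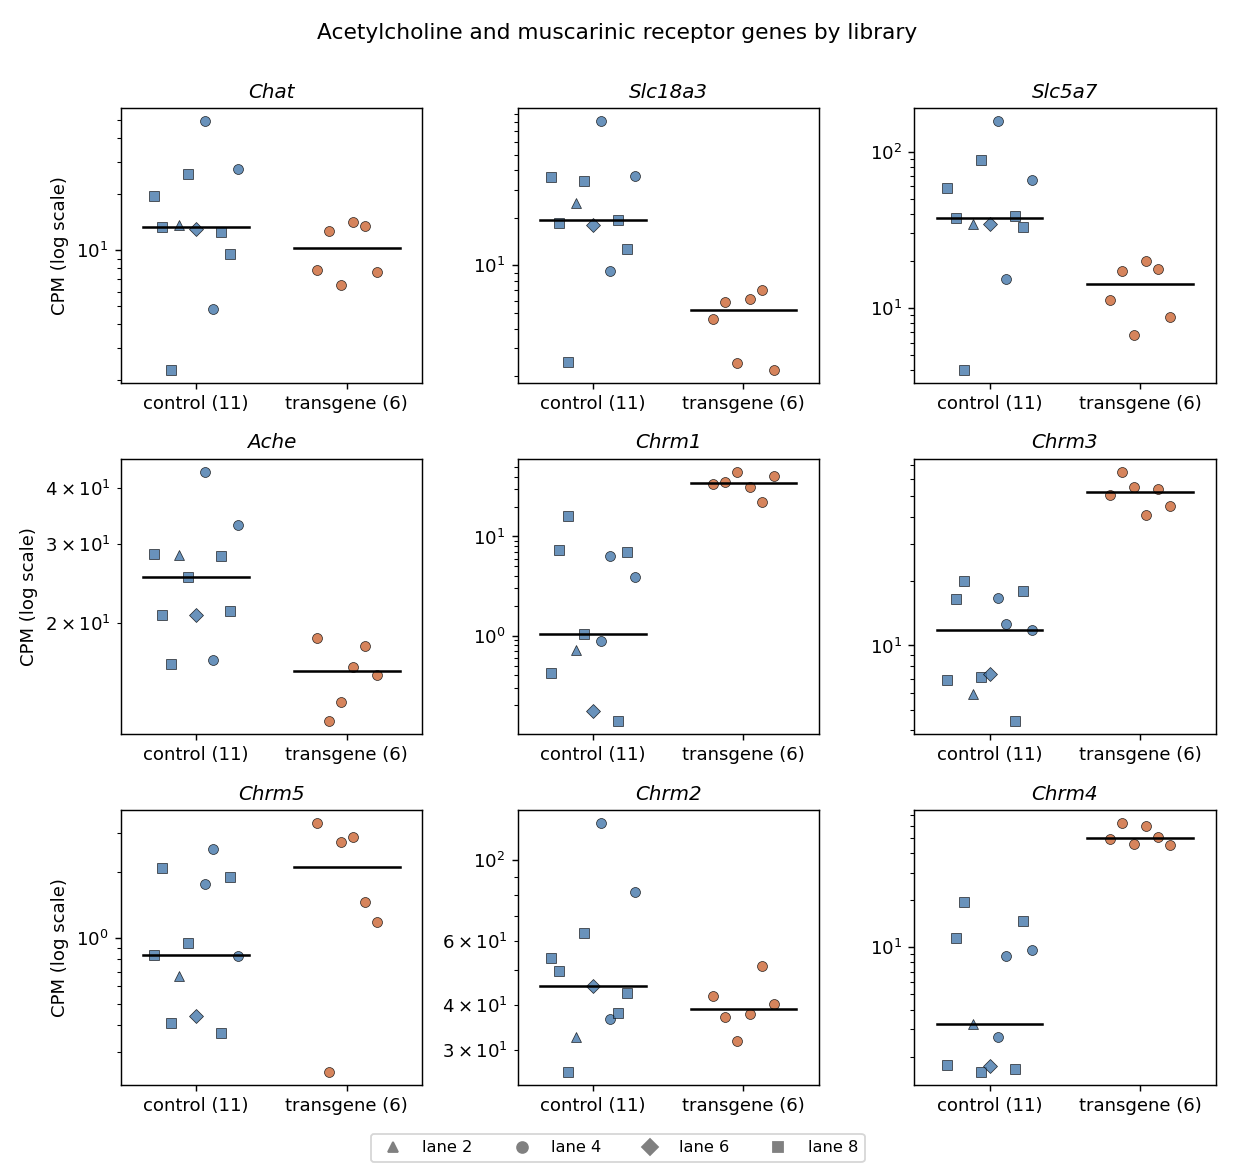
Level of each of the 9 genes in every library, in TMM-scaled CPM on log axes that differ between panels; points are libraries, marker shapes are sequencing lanes and horizontal bars are group medians. For Chrm1, Chrm3 and Chrm4 the 6 transgene libraries lie above all 11 controls, whereas Chat and Chrm2 overlap widely.

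Among the Gq-coupled receptors, Chrm1 had 22.1, 34.5 and 44.8 CPM as the lowest, median and highest transgene values and 0.138, 1.04 and 16.0 CPM in the controls. Every transgene library lay above every control. The controls themselves fell into separate sets, with controls 1, 4, 5, 6, 7 and 9 at 0.138 to 1.04 CPM and controls 2, 3, 8, 10 and 11 at 3.92 to 16.0 CPM. In control 9 only 3 counts were behind the lowest value. The log2 fold change was 3.13 ± 0.65 (edgeR adjusted p = 0.000621), from means of 34.6 ± 7.79 CPM (SD, n = 6) and 3.97 ± 4.89 CPM (n = 11), and within lane 4 it was 3.21 ± 0.48 (edgeR adjusted p = 0.000888).

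Chrm3 also had no overlap between the groups, with 40.7, 52.3 and 65.2 CPM against 4.42, 11.8 and 20.0 CPM. Its controls differed by 4.52-fold from lowest to highest, far less than the 115.5-fold range of Chrm1. It rose by 2.16 ± 0.27 on the log2 scale (edgeR adjusted p = 3.39e-06), and by 1.90 ± 0.18 within lane 4 (edgeR adjusted p = 7.76e-05). Mean levels were 51.8 ± 8.51 CPM (SD, n = 6) and 11.6 ± 5.53 CPM (n = 11).

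Chrm5, the rarest of the receptors, rested on 233 counts in all transgene and 263 in all control libraries. It had 0.244, 2.10 and 3.35 CPM against 0.368, 0.837 and 2.56 CPM, and transgene 2 was the lowest of all 17 libraries. The log2 fold change of 0.76 ± 0.46 did not pass the test (edgeR adjusted p = 0.185), nor did that of 0.18 ± 0.61 within lane 4 (edgeR adjusted p = 0.862), which turned to -0.15 without control 11. No difference was detected, and the transgene libraries spread 13.7-fold from lowest to highest.

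Of the Gi-coupled receptors, Chrm4 had 45.2, 49.9 and 62.6 CPM in the transgene libraries against 1.59, 3.23 and 19.6 CPM. The groups did not overlap, and the controls split into the same sets of libraries as for Chrm1, at 1.59 to 3.23 CPM and 8.85 to 19.6 CPM. It rose by 2.91 ± 0.48 on the log2 scale (edgeR adjusted p = 6.91e-05), from means of 52.3 ± 7.39 CPM (SD, n = 6) and 6.99 ± 6.28 CPM (n = 11), and by 2.88 ± 0.34 within lane 4 (edgeR adjusted p = 0.00027).

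Chrm2, the other Gi-coupled receptor, had 31.8, 39.1 and 51.0 CPM against 26.1, 45.1 and 126.5 CPM, so that the controls enclosed the whole transgene range. Its log2 fold change of -0.44 ± 0.26 did not pass over all libraries (edgeR adjusted p = 0.185), from means of 40.1 ± 6.43 CPM (SD, n = 6) and 54.2 ± 28.5 CPM (n = 11). With the lane and its flow cell as a factor the difference was -1.03 and passed (edgeR adjusted p = 0.0142), and within lane 4 it was -1.05 ± 0.29 (edgeR adjusted p = 0.022). That lane 4 call ended without control 7, at -0.57 (edgeR adjusted p = 0.136), and without control 11, at -1.05 (edgeR adjusted p = 0.0592).

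Groups without overlap over all libraries were seen for 3 of the 9 genes, all higher, beside 14.9% of all tested features (9.46% higher and 5.40% lower). Within lane 4, 7 of the 9 were called, 3 higher and 4 lower, where 25.6% of 19261 features were called, 13.6% higher and 12% lower. Without control 7, the lower calls among the 9 within lane 4 numbered 2, where 4147 of 20075 features were called, 2276 of them higher. In lane 4 the same 3 receptors had no overlap on the higher side and Slc18a3 on the lower side, beside 25.4% of all features (14.7% higher and 10.6% lower). The lane 4 comparison uses 9 of the 17 libraries of the first one and is not independent of it.

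Controls of lane 8 (n = 6) and lane 4 (n = 3) were compared to see how far these genes differ without the transgene. None of the 9 was called, and by edgeR none of 19384 features was (0%), with 1543 at an unadjusted p under 0.05 and 1 call by DESeq2. The lane groups overlapped in all 9 genes, and 2.62% of all features had no overlap (1.52% higher and 1.10% lower). Leaving out control 8 gave 88 calls over all features and none among the 9. The log2 differences, lane 8 minus lane 4, were -0.95 ± 0.67 for Chat, -1.02 ± 0.70 for Slc18a3, -0.85 ± 0.75 for Slc5a7 and -0.39 ± 0.27 for Ache. Those of the receptors were 0.49 ± 1.10 for Chrm1, -0.17 ± 0.43 for Chrm3, -0.63 ± 0.55 for Chrm5, -0.82 ± 0.34 for Chrm2 and 0.25 ± 0.83 for Chrm4, with edgeR adjusted p between 0.581 and 0.924 over the 9 genes. The 3 lane 4 controls are shared with the comparison before it.

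**Figure D3:**
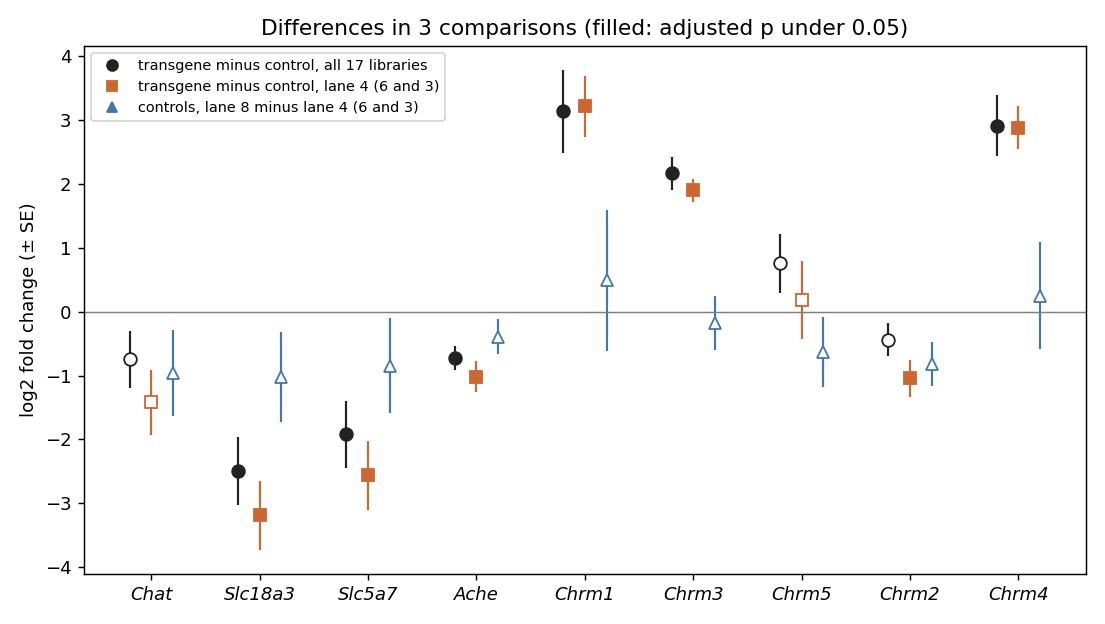
Log2 fold change with its standard error for each gene in the comparison over all 17 libraries (circles), within lane 4 (squares) and between controls of lane 8 and lane 4 (triangles); filled symbols passed an edgeR adjusted p under 0.05. Chrm1, Chrm3 and Chrm4 lie above 0 and Slc18a3, Slc5a7 and Ache below 0 in both transgene comparisons, and none of the control differences is filled.

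Levels of different genes were compared as mean CPM per kb of exon. In the controls Ache was highest at 11.7 ± 3.62 CPM per kb (SD, n = 11), followed by Slc18a3 at 11.05 ± 8.84, Slc5a7 at 9.96 ± 8.11, Chrm2 at 9.55 ± 5.02, Chat at 6.11 ± 4.62, Chrm4 at 4.86 ± 4.36, Chrm3 at 2.67 ± 1.27, Chrm5 at 0.728 ± 0.483 and Chrm1 at 0.634 ± 0.779. Neighbours in that order differed by less than the larger SD of each pair, except Chrm3 and Chrm5. In the transgene libraries Chrm4 led at 36.3 ± 5.13 CPM per kb (SD, n = 6), above Chrm3 at 11.9 ± 1.96, and the next, Ache at 7.08 ± 1.14 and Chrm2 at 7.06 ± 1.13, were alike within their SD. Chrm1 at 5.52 ± 1.24, Chat at 3.64 ± 1.19, Slc5a7 at 2.63 ± 1.04, Slc18a3 at 1.95 ± 0.832 and Chrm5 at 1.24 ± 0.750 followed. From Chat to Chrm5 each step was smaller than the larger SD of the pair, and the steps from Chrm2 to Chrm1 and from Chrm1 to Chat exceeded it. In both groups the SD is a spread between libraries that the genes share. It therefore does not test the order of genes within a library. Counts lost to shared exons lower Ache, Chrm1 and Chrm3 in this order.

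The 3 genes of the cholinergic terminal stood in different proportions in the groups. For each library the ratio of Chat to Slc18a3 counts was taken as a description. This and the ratios after it are not divided by exon length, so they compare the groups and do not rank the genes. The Chat to Slc18a3 ratio was 1.71 to 3.51 in the transgene libraries (median 2.23) and 0.524 to 0.929 in the controls (median 0.724). Chat counts thus exceeded Slc18a3 counts in every transgene library and in none of the controls. The ratio of Slc5a7 to Chat was 1.04 to 1.44 (median 1.33) against 1.77 to 3.46 (median 2.97), again without overlap. The ratio of Slc5a7 to Slc18a3 was 2.47 to 4.03 (median 2.85) against 1.39 to 2.60 (median 1.92), with a slight overlap. Among the controls, those of lane 4 had Chat to Slc18a3 ratios of 0.524 to 0.754.

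**Figure D4:**
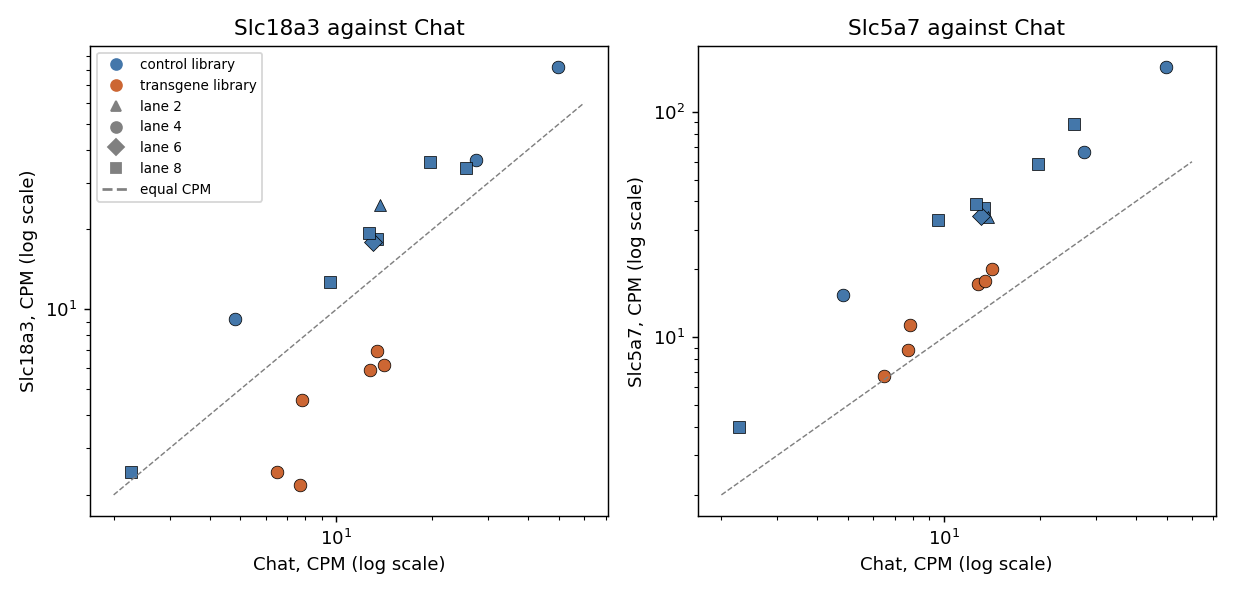
Slc18a3 (left) and Slc5a7 (right) against Chat in each library, in CPM on log axes; colours are groups, shapes are lanes and the dashed line marks equal CPM. Transgene libraries lie under the equal line for Slc18a3, where Chat to Slc18a3 ratios were 1.71 to 3.51, and the 11 controls lie on the other side of it.

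Across the 11 controls these 3 genes varied together on the log2 CPM scale. The permutation p given here asks only whether a pair varies independently over libraries. The controls also differed widely in regional markers, with which many other genes can vary. The share of all genes with such an r was not computed, so these p-values do not show a relation particular to cholinergic genes. Chat and Slc18a3 had a Pearson r of 0.98 (permutation p = 1e-05, the smallest that 100000 resamples can give, 0.00012 adjusted over 36 pairs of genes) and a Spearman rho of 0.96 (permutation p = 1e-05, adjusted 0.00036). Chat and Slc5a7 had r = 0.98 (permutation p = 1e-05, adjusted 0.00012) and rho = 0.91 (permutation p = 0.00028, adjusted 0.00252). Leaving out controls 7 and 3, the highest and lowest in Chat, r was 0.96 and 0.97. Within the 6 controls of lane 8, r was 0.99 for both pairs (exact permutation p = 0.00556 and 0.00278, each 0.025 adjusted).

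Ache and Chrm2 went the same way in the controls, with the same limit on what the p-values show. Chat and Ache had r = 0.89 (permutation p = 0.00032, adjusted 0.00192) and rho = 0.85 (permutation p = 0.00137, adjusted 0.00792), and r = 0.81 without controls 7 and 3. In lane 8 their r was 0.84 (exact permutation p = 0.0375, adjusted 0.075). Chat and Chrm2 had r = 0.88 (permutation p = 0.00061, adjusted 0.00314) and rho = 0.85 (permutation p = 0.00154, adjusted 0.00792), r = 0.76 without those libraries and r = 0.95 in lane 8 (exact permutation p = 0.00556, adjusted 0.025). No correlation is given for Chrm1 or Chrm4, whose controls fell into separate sets.

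In the 6 transgene libraries Chat and Slc5a7 had r = 0.98 (exact permutation p = 0.00139, adjusted 0.05) and rho = 1 (exact permutation p = 0.00278, adjusted 0.1). Chat and Slc18a3 had r = 0.88 (exact permutation p = 0.0236, adjusted 0.225) and rho = 0.89 (exact permutation p = 0.0333, adjusted 0.2). Without transgene 4 and transgene 3, the libraries farthest from the Chat median, these r were 0.96 and 0.82. No pair of the 9 genes had an adjusted p under 0.05 in this group. With 6 libraries the smallest exact p possible is 0.00139 for r and 0.00278 for rho. Adjusted over 36 pairs, a single best pair can reach only 0.05 and 0.1. The lack of passing pairs therefore does not show that the genes varied independently.

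Control 3, lowest in Chat, Slc18a3, Slc5a7, Ache and Chrm2 among the controls, was also the control with the most Chrm1, Chrm3 and Chrm4. It had 860.9 CPM of cortical excitatory markers, the most among controls, and 33.4 CPM of the motor and brainstem cholinergic genes, the fewest. Control 7 was the reverse for the terminal genes and Chrm2, with 162.2 CPM of motor and brainstem cholinergic genes and 156.9 CPM of cortical markers. The part of these marker levels was not tested.

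The 5 receptors together had 56.1 to 70.8 CPM per kb in the transgene libraries and 9.13 to 29.2 CPM per kb in the controls. Their composition differed by library. Chrm4 made up a median of 56.9% of that sum in the transgene libraries (53.9% to 64.6%) and 22.7% in the controls (6.30% to 53.1%). Chrm2 made up 11.3% (9.23% to 14.7%) against 58.2% (18.0% to 76.3%). Chrm4 led in 6 of 6 transgene libraries, and among the 11 controls Chrm2 led in 9 and Chrm4 in 2. The median shares of Chrm3 were 19.8% and 13.8%, of Chrm1 8.40% and 1.16%, and of Chrm5 2.14% and 4.04%. These shares and orders are descriptions and depend on the exon length used. Without division by length Chrm3 led in 4 of the 6 transgene libraries and Chrm4 in 1, the 2 were tied in transgene 6, and Chrm2 led in all 11 controls. On that scale Chrm4 made up 27.9% and Chrm3 29.2% in the transgene libraries, and with only the exon bases of a single deposited transcript, chosen after seeing the data, Chrm4 made up 43.1% and Chrm1 22.0%. On the single-transcript scale Chrm4 again led in 6 of 6 transgene libraries, and Chrm2 in 9 and Chrm4 in 2 of the controls.

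**Figure D5:**
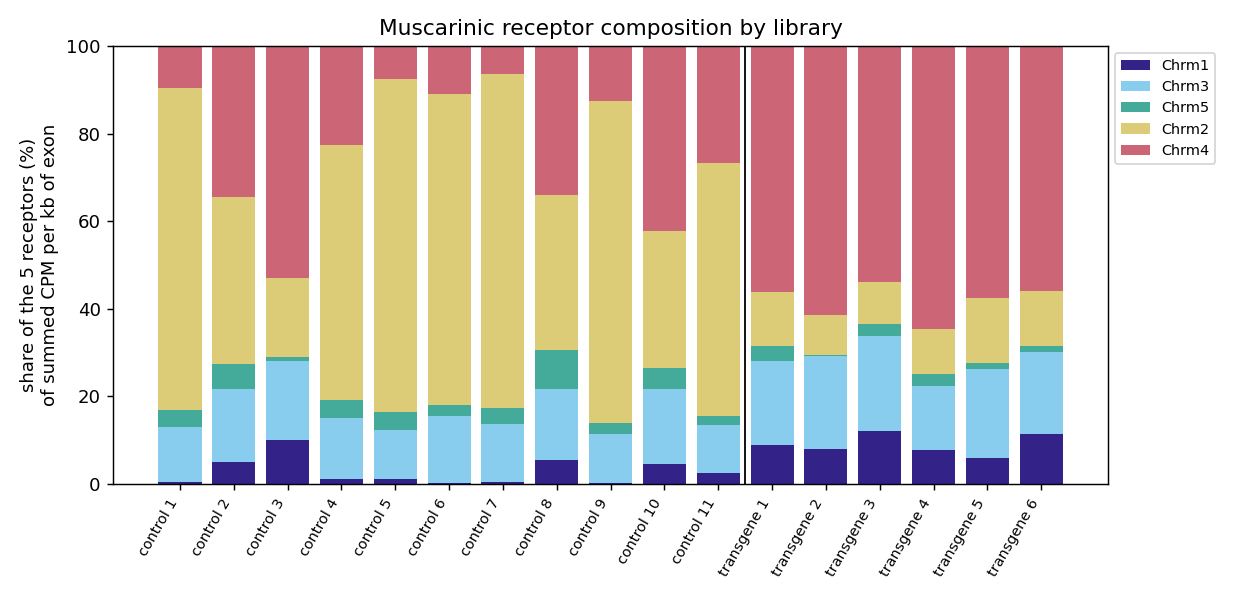
Share in percent of each muscarinic receptor gene in the summed CPM per kb of exon of all 5, with 1 bar per library and the controls left of the vertical line. Chrm4 takes 53.9% to 64.6% in the transgene libraries, and Chrm2 leads in 9 of the 11 controls.

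Lists of other genes, each named for a population of cholinergic neurons, differed in their calls. Not every gene is particular to the population its list is named for. Of 12 listed motor and brainstem cholinergic neuron genes, 8 were tested and 7 were lower, with 0 higher and a median log2 fold change of -4.01 (edgeR, over all libraries, as for the lists below). Tbx20, a T-box transcription factor gene, had 1 count in the transgene and 374 in the control libraries, a ratio of 213.3 in favour of the controls (95% interval 38.0 to 8447, counting error only). Lhx4, a LIM homeobox gene of motor neurons, fell by 5.40 ± 0.81 (edgeR adjusted p = 2.85e-05) and Phox2a by 4.21 ± 0.57 (edgeR adjusted p = 9.87e-06). Of the untested genes of the list, Mnx1 had 0 and 18 counts and was at least 3.42-fold lower in the transgene libraries, and Prph, the peripherin gene, had 0 and 52 counts and was at least 9.89-fold lower (floor of 3 counts over the group). Lhx3 had 1 and 26 counts, a ratio of 14.8 (2.44 to 607.9).

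Forebrain cholinergic regulators were mixed. Of 8 listed, 6 were tested, 1 rose and 2 fell, with a median of -0.40. Isl1, a LIM homeobox gene of striatal and other cholinergic neurons, rose by 1.76 ± 0.50 (edgeR adjusted p = 0.00755), Zic4 fell by 1.68 ± 0.28 (edgeR adjusted p = 8.05e-05) and the p75 neurotrophin receptor gene Ngfr fell by 0.71 ± 0.25 (edgeR adjusted p = 0.0264). With the lane and its flow cell in the model, chosen after seeing the data for the lists, 0 rose and 1 fell, by edgeR. Lhx8, which specifies forebrain cholinergic neurons, was too rare to be tested, with 97 counts in the transgene and 2 in the control libraries, a ratio of 85.0 (22.9 to 712.2). Nkx2-1, expressed in the ventral forebrain that gives rise to these neurons, had 53 and 0 counts and was at least 31.0-fold higher in the transgene libraries.

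Of 8 genes listed for the habenula, all tested, 5 were called higher and 0 lower, with a median of 1.44. Gpr151, an orphan receptor gene of habenula, rose by 2.49 ± 0.43 (edgeR adjusted p = 0.000106), the nicotinic subunit gene Chrna5 by 2.32 ± 0.28 (2.45e-06), the neurokinin B gene Tac2 by 1.85 ± 0.45 (0.00237) and the substance P gene Tac1 by 1.74 ± 0.25 (2.15e-05). Tac1 is also among the striatal projection neuron markers. The 3 that did not pass, named after their values were seen, had log2 differences below 0. The transcription factor gene Pou4f1, a marker of medial habenula neurons, had -1.83 ± 0.83 (edgeR adjusted p = 0.0765), the nicotinic subunit gene Chrnb4 -0.49 ± 0.29 (0.185) and its partner Chrna3 -0.18 ± 0.28 (0.622). Transgene 5 was the highest transgene library for Gpr151, Pou4f1, Chrnb4 and Chrna3, at 8.08, 12.7, 5.78 and 3.95 CPM. The transgene medians of these genes were 1.45, 0.338, 2.28 and 1.56 CPM. For Gpr151 the lowest transgene library, at 0.927 CPM, still lay above the highest control, at 0.902 CPM.

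Among cholinesterase partners and choline supply genes, 12 of 13 were tested, 1 rose and 5 fell, with a median of -0.39. Colq, the collagen tail that anchors acetylcholinesterase, fell by 3.34 ± 0.40 on the log2 scale (edgeR adjusted p = 2.4e-06), from 1.17 ± 0.433 CPM (SD, n = 11) to 0.109 ± 0.0700 CPM (n = 6). The choline transporter-like genes went opposite ways, Slc44a3 falling by 2.38 ± 0.59 (edgeR adjusted p = 0.00256) and Slc44a5 rising by 1.06 ± 0.15 (edgeR adjusted p = 1.73e-05). Chpt1, the last enzyme of phosphatidylcholine synthesis from choline, fell by 0.94 ± 0.08 (edgeR adjusted p = 2.14e-07).

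Genes on the Gq side of muscarinic signalling were higher for 9 of 12 tested and lower for 2, with a median of 1.14. Kcnq5 and Kcnq3, potassium channel genes of the M current that muscarinic receptors close, rose by 3.21 ± 0.36 (edgeR adjusted p = 1.41e-06) and 1.35 ± 0.15 (1.04e-06). The phospholipase C genes Plcb1 and Plcb4 moved apart, Plcb1 rising by 1.33 ± 0.13 (edgeR adjusted p = 5.2e-07) and Plcb4 falling by 1.37 ± 0.15 (9.91e-07). On the Gi side 6 of 11 tested genes were higher and 1 lower, with a median of 0.41. The regulators of G protein signalling Rgs9 and Rgs4 rose by 2.47 ± 0.21 (edgeR adjusted p = 1.23e-07) and 2.06 ± 0.23 (1.06e-06), the adenylyl cyclase gene Adcy5 by 1.80 ± 0.12 (1.3e-08) and the inward rectifier channel gene Kcnj6 by 0.84 ± 0.18 (0.000986). Rgs9 also stands among the striatal projection neuron markers. Beside these shares, 23.0% of all tested features were called higher and 24.4% lower.

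For 7 of the 9 genes, leaving out Chrm1 and Chrm4, the genes with the most similar log2 CPM pattern over the 11 controls were listed among 12975 genes, as a description without a test, since the libraries share depth and tissue make-up. For Chat these were Lhx4 (r = 0.99), Kcnj14 (0.99) and Arhgap36 (0.98), and in the 6 transgene libraries their r with Chat was 0.06, -0.08 and 0.09. Lhx4 had only 10 counts in those 6 libraries together, so its r there says little. The similar genes were picked for a high r in the controls, so a lower r in other libraries can follow from that choice alone. For Slc18a3 they were Sncg (0.98), Lhx4 (0.98) and Chat (0.98), and for Slc5a7 Isl1 (0.99), Sncg (0.99) and Chat (0.98). In the transgene libraries Isl1 had r = 0.77 with Slc5a7. The nearest to Ache were Hacl1 (0.97), Inhbb (0.95) and Iglon5 (0.95), and to Chrm2 Ccdc160 (0.99), Resp18 (0.99) and Rwdd2a (0.98). Chrm3 was nearest to Fbxl2 (0.97), Ak5 (0.96) and Fam189a1 (0.96), and Chrm5 to Rab3c (0.94), Fam183b (0.89) and Fam19a2 (0.88).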

How the data were processed

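The authors deposited raw counts per transcript for each of 17 libraries, 68517 rows each; reads were placed on mm10 per the submitters' processing notes. Aligner, counting program, strand setting and annotation: none is given in the sources used here. At the end of each file, 5 rows named no feature and were left out of library sizes and tests. Ambiguous reads made up 40.2% to 43.4% and reads in no feature 5.29% to 11.1% of assigned, ambiguous and no-feature reads together. Transcript rows (64380 of 64505) were matched to GENCODE M21 and summed to 41015 genes; 4007 assembled-locus rows and 125 unmatched rows stayed as features of their own, 45147 in all.

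Counts were tested with edgeR 4.0.16 (R 4.3.3; quasi-likelihood, TMM, filterByExpr with a minimum count of 10, Benjamini-Hochberg over all features). CPM values are TMM-scaled; log2 CPM used a prior count of 2. Alternatives were DESeq2 1.42.0, limma-voom (3.58.1), library-size scaling, no filter, the top transcript row, lane or title-number factors and left-out libraries. In simulated counts for the comparison over all libraries, 83% of 2-fold and 45% of 1.5-fold changes among 18715 genes were recovered, with 3.03% false calls; within lane 4 the shares were 36% and 5% among 18786 genes, with 6.82% false calls. For lane 8 against lane 4 among controls they were 51% and 8% among 18930 genes, with 7.81% false calls. In each simulation only 200 genes above a minimum level were changed, and genes were drawn independently. In the data 47.4% of features were called over all libraries, and sets of marker genes shifted together. The simulated shares therefore do not measure recovery or false calls in the real comparisons, least of all for rare genes. No pair of libraries of a group agreed within counting noise (chi-square per gene at least 8.76). The 9 genes and all lists were chosen with earlier results of these data known. Named were the 9 genes, up to 4 called genes of each pathway list with the largest fold changes, the 3 genes most like each of the 9 (mean log2 CPM of at least 0, no Gm or Rik symbols; left out for Chrm1 and Chrm4, whose controls fell into separate sets), and listed genes at or near 0 counts. One gene that this rule names is not reported here. Intervals and floors cover counting error only. Groups came from the labels' treatment field.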

Additional observations from a re-analysis of the deposited data

How the results depend on the processing

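The 6 calls over all libraries (Slc18a3, Slc5a7, Ache, Chrm1, Chrm3 and Chrm4) held in each of 25 alternatives, including each left-out library and the fit without control 7 and transgene 3, and the counts of 3 higher and 3 lower stayed within 1.5 times. Within lane 4, leaving out 1 library gave 2 to 5 lower calls among the 9, the fewest without control 7. Calls over all features in those fits ran from 3712 of 19956 without control 11 to 4863 of 20263 without control 8. Chrm2 within lane 4 also missed the threshold with limma-voom (adjusted p = 0.0604). Chrm5 within lane 4 turned to -0.078 with limma-voom and ran from -0.15 to 0.58 over left-out libraries, below 0 without transgene 1 (-0.032) or control 11. Between control lanes Chrm1 and Chrm4 turned to -0.50 and -0.25 with limma-voom and to -0.22 and -0.16 without control 3, and Slc5a7 and Chrm4 turned to 0.086 and -0.15 without control 7; over left-out libraries the ranges were -0.22 to 1.11 for Chrm1, -0.16 to 0.55 for Chrm4 and -1.33 to 0.086 for Slc5a7. None of these was called, and the cause was not tested. Library-size scaling moved the median log2 fold change of all features from -0.05 to -0.16 and the share of higher calls among calls from 48.6% to 35.6%, without changing a call or direction among the 9 genes or the direction of the named pathway genes.

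Receptor shares moved with the length used, by construction. Without length the transgene medians were 18.5% for Chrm1, 22.7% for Chrm2, 29.2% for Chrm3 and 27.9% for Chrm4, and the control median was 1.28% for Chrm5. With exon bases of a single transcript they were 22.0% for Chrm1, 8.58% for Chrm2, 24.4% for Chrm3 and 43.1% for Chrm4, and 20.5% for Chrm3 in controls. Choline supply genes called higher numbered 2 without control 7 and transgene 3. Forebrain regulators called lower numbered 1 under that alternative and 1 with the lane factor, and those called higher 0 with the lane factor; Gi-side genes called lower numbered 0 under both. The cause was not tested. These list alternatives were chosen after seeing the data. No paired analysis was possible because no label says that a number marks a shared animal, litter or day. The first number of the titles, which libraries of both groups share, was fitted as a factor: 3 of the 9 genes were called higher and 3 lower over all libraries, and no call among the 9 changed. Over all features that fit called 7503 of 19136, of which 3816 were higher. Counts were low for Chrm5, at 5 to 63 per library, and for Chrm1 in some controls, which had 3 to 274. Whether depth limited these comparisons was not tested.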
